A study of Mus musculus with 12 samples.

Results

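The p53 target genes described here are 10 genes that the transcription factor p53 is known to switch on: Cdkn1a, Mdm2, Ccng1, Trp53inp1, Bbc3, Pmaip1, Bax, Eda2r, Phlda3 and Zmat3. They were taken by name, with no threshold on measured values but with earlier results of these data known, and were found by gene identifier among the 55487 genes counted. All 10 passed the filter on low counts that left 18109 genes for testing. RNA was sequenced in bulk from 12 libraries of mouse epiblast stem cells (EpiSCs), primed pluripotent cells that had been derived in culture from embryonic stem cells and were grown in suspension as embryoid bodies. All 4 groups, of 3 libraries each, carried a transgene for FLAG-tagged Mixl1, a homeobox factor of the primitive streak, that is induced by doxycycline. D1Dox_d2 received doxycycline at 1 µg/mL and was collected on day 2. D3Dox_d4 received the same dose and was collected on day 4. NoDox_d2 and NoDox_d4 carried the transgene, got no drug and were taken on day 2 and on day 4. What the digit between D and Dox stands for is not given in the labels, which also name no clone and do not say whether replicates were separate cultures, so p-values measure the spread between these libraries. No group of cells lacking the transgene was treated, so effects of the drug and of Mixl1 cannot be told apart.

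The protein p53, encoded by Trp53, is kept low in unstressed cells by Mdm2, a ubiquitin ligase that marks it for destruction and is itself a p53 target, which closes a feedback loop. When p53 is stabilised, its targets can arrest the cell cycle, as Cdkn1a does, or promote cell death, as Bbc3, Pmaip1 and Bax do. Pluripotent cells are known to carry much p53 protein and to die readily by apoptosis as they leave pluripotency. The activity of p53 lies mainly in its protein, so RNA counts show its targets and not p53 itself.

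p53 binds DNA as a pair of adjacent decamers, each close to a known consensus, and the windows of 250 bases before RefSeq gene starts were searched for it on both strands. Windows were on hand for 7 of the 10 genes. These genes had 10 windows, with 3 for Bbc3, 2 for Cdkn1a and 1 for each of the others. An exact decamer was present in 1 window each of Cdkn1a, Ccng1, Mdm2 and Bax, against 7.13% of all 32851 windows. A pair of adjacent decamers with at most 2 mismatches in all was present in the same windows of Cdkn1a and Ccng1, against 0.661% of all windows. No decamer was found in the other Cdkn1a window, at chr17:29093519-29093768, or in the windows of Bbc3, Eda2r and Phlda3. This says only that these letters are not in these windows. The windows with a match are shown because Cdkn1a, Ccng1 and Mdm2 carry much of what follows. They are RefSeq sequences of build GRCm38.p6, written 5′ to 3′ on the strand of the gene, and capitals mark the matched decamers. The Cdkn1a window lies at chr17:29090729-29090978 on the plus strand, the Ccng1 window at chr11:40755287-40755536, the Mdm2 window at chr10:117710759-117711008 and the Bax window at chr7:45466899-45467148, these 3 on the minus strand.
Cdkn1a: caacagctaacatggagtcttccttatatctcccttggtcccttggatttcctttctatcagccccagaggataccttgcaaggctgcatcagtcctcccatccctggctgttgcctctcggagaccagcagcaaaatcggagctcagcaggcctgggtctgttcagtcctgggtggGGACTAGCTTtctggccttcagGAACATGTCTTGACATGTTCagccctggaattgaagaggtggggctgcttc
Ccng1: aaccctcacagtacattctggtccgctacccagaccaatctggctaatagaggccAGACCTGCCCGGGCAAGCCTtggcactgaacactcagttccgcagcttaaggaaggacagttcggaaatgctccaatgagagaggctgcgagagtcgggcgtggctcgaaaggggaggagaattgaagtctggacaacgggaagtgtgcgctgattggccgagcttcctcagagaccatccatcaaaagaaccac
Mdm2: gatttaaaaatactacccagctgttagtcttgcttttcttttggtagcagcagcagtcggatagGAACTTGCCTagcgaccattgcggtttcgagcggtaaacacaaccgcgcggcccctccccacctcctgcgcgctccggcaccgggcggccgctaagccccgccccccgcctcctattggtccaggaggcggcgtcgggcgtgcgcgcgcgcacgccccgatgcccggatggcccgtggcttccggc
Bax: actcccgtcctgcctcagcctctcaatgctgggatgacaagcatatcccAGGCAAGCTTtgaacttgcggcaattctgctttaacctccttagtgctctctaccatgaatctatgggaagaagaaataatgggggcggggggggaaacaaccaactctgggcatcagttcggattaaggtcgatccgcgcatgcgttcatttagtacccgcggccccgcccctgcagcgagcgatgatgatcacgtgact
Before Cdkn1a, the pair of decamers begins 51 bases before this start and a single decamer begins 73 bases before it. Before Ccng1, the pair begins 195 bases before the start. Each of these pairs holds 1 mismatch. The decamers of Mdm2 and Bax begin 186 and 201 bases before their starts. A match is a description of the sequence, and binding by p53 was not measured.

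The libraries held 24100487 to 28020036 counts assigned to genes. Levels are given as CPM, counts scaled to a common library size, and in this bulk RNA a change in the share of cells that express a gene and a change in RNA per cell cannot be told apart. Mixl1, the induced gene, had 392, 362 and 387 CPM in D1Dox_d2, against 91.0, 0.593 and 1.15 CPM in NoDox_d2. It had 478, 417 and 449.6 CPM in D3Dox_d4, against 1.62, 1.83 and 1.11 CPM in NoDox_d4. The library labelled NoDox_d2 replicate 1 thus had 91.0 CPM of Mixl1, which goes against its label, and is named as such below. It and NoDox_d4 replicate 1 also stood apart from their own groups over all genes, with correlations of log2 CPM of 0.957 to 0.961 against 0.987 or more between the other libraries of a group. Of 16 markers of fibroblasts, the cells on which stem cells are often grown and whose genes mesoderm also uses, the summed level was 2346, 2378 and 2891 CPM in D1Dox_d2, against 660, 512 and 516 CPM in NoDox_d2. It was 546, 611 and 650 CPM in D3Dox_d4, against 975, 299 and 309 CPM in NoDox_d4. None of these 16 markers was at 0 in every library of a group. The labelled cell type was checked with 12 markers of epiblast, which summed to 1048 to 1142 CPM in D1Dox_d2, 475 to 527 CPM in D3Dox_d4, 1529 to 1915 CPM in NoDox_d2 and 519 to 882 CPM in NoDox_d4. Pou5f1, the pluripotency factor, stood at 89.8 CPM or more in every library without doxycycline. It does not speak for the whole list: of the 11 epiblast markers tested, 8 fell and 0 rose in NoDox_d4 against NoDox_d2, beside 5.55% and 5.09% of all genes. Tdgf1, another marker, fell there by a log2 fold change of -3.10 ± 0.32. Pou5f1 itself fell in D3Dox_d4 against D1Dox_d2, at -1.99 ± 0.22.

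Per kilobase of exon, the 10 genes spanned a wide range of levels. Ccng1 had the highest mean over the 12 libraries, 76.9 CPM per kb, followed by Cdkn1a at 45.2, Bax at 44.4, Phlda3 at 33.7, Trp53inp1 at 27.2, Mdm2 at 19.4 and Zmat3 at 14.2 CPM per kb. Bbc3 and Eda2r were lower at 8.29 and 7.67 CPM per kb, and Pmaip1 was near the limit of detection at 0.491 CPM per kb. Neighbours in this order changed places between groups: in NoDox_d4, Bax had 39.9 ± 3.5 CPM per kb and Cdkn1a 22.1 ± 5.4 CPM per kb, whereas in D1Dox_d2 Cdkn1a had 62.8 ± 3.1 CPM per kb and Bax 52.2 ± 4.0 CPM per kb (SD, n = 3 each). By group mean, 8 of the 10 genes were highest in D1Dox_d2, and Bbc3 and Zmat3 were highest in NoDox_d2. NoDox_d4 was the lowest group for 7 genes, D3Dox_d4 for Pmaip1 and Zmat3, and D1Dox_d2 for Bbc3.

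**Figure D1:**
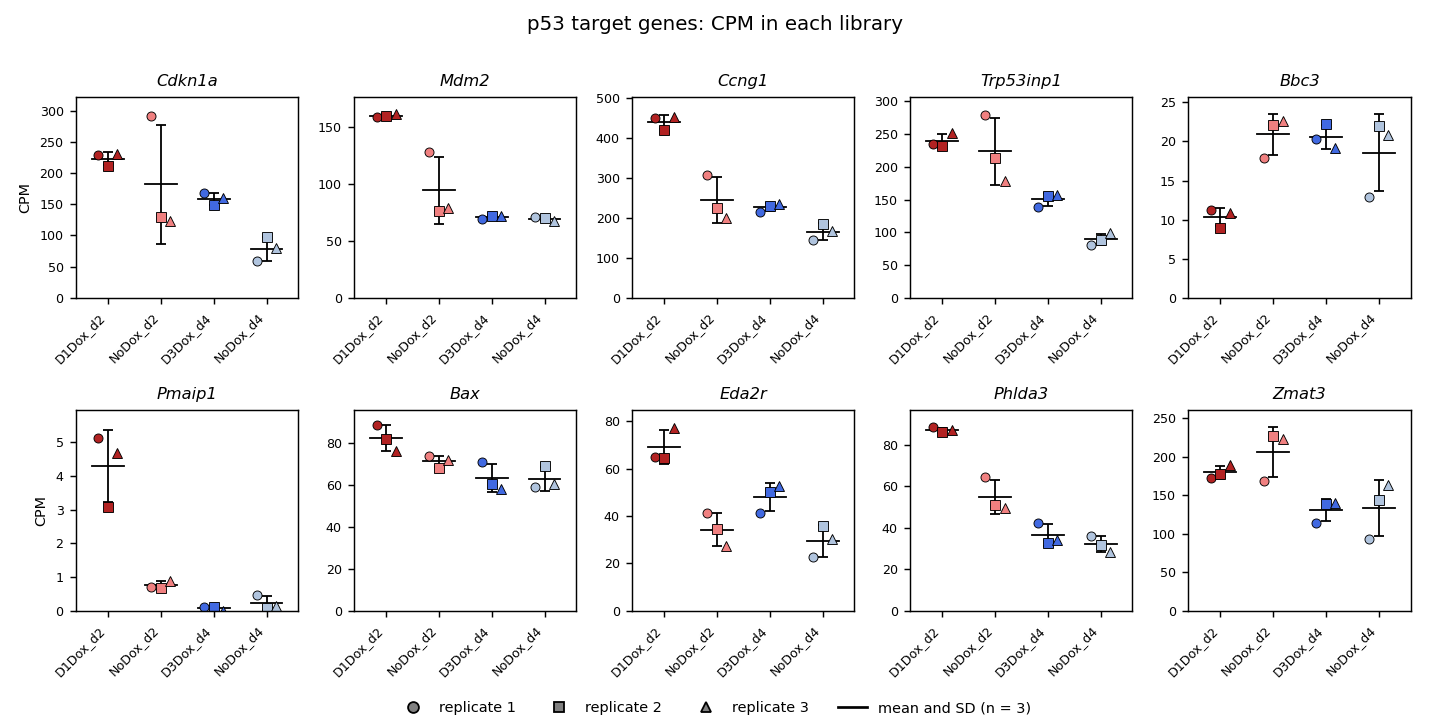
CPM of each p53 target gene (vertical axis, linear, own scale per gene) in the 12 libraries, by group; symbols give the replicate number and bars the mean and SD of 3 libraries. The 3 D1Dox_d2 libraries lie above all others for Mdm2, Ccng1, Pmaip1, Bax, Eda2r and Phlda3 and below all others for Bbc3.

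On day 2, doxycycline came with higher RNA of 5 of the 10 p53 targets and lower RNA of 1. Pmaip1, Eda2r, Ccng1, Mdm2 and Phlda3 rose and Bbc3 fell in D1Dox_d2 against NoDox_d2, at an adjusted p under 0.05 in edgeR's quasi-likelihood test. Of all 18109 genes tested, 14.9% rose and 13.4% fell in this comparison, 28.4% in either direction. The groups did not overlap for 7 of the 10 genes, 6 with D1Dox_d2 higher and 1 with it lower, against 46.0% of all genes, 23.9% higher and 22.1% lower. The median log2 fold change was 0.48 over the 10 genes and -0.03 over all genes. Markers of fibroblasts moved with the same comparison, with 12 of 16 higher and none lower at this threshold, and their part in the results on p53 targets was not tested.

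Among the genes of arrest and feedback, Mdm2 had 159, 159.5 and 162 CPM in D1Dox_d2, against 128, 76.4 and 78.9 CPM in NoDox_d2. The D1Dox_d2 libraries agreed closely and all lay above NoDox_d2, in which the library labelled replicate 1 stood well above the others. Its log2 fold change was 0.76 ± 0.16 (SE; edgeR adjusted p = 0.00538). Ccng1, a cyclin that acts in feedback on Mdm2, had 451, 419.9 and 452 CPM in D1Dox_d2, against 309, 226 and 199.6 CPM in NoDox_d2, a log2 fold change of 0.85 ± 0.15 (edgeR adjusted p = 0.00165). Again no D1Dox_d2 library was as low as any NoDox_d2 library. Cdkn1a, the inhibitor of cyclin-dependent kinases also called p21, had 228, 211 and 230.3 CPM in D1Dox_d2, against 292, 129 and 124 CPM in NoDox_d2. The highest of these 6 values was in the library labelled NoDox_d2 replicate 1, so the groups overlapped. Cdkn1a was not called, with a log2 fold change of 0.30 ± 0.28 (edgeR adjusted p = 0.464), but without that library it was 0.81 (edgeR adjusted p = 0.00279). About 7.7% of the exon bases of Cdkn1a overlap a gene on the opposite strand, and reads of the pair were counted alike.

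The 3 members that act on mitochondria in cell death did not move together on day 2. Pmaip1, also called Noxa, a small sensitizer protein of the BCL2 family, had 5.11, 3.09 and 4.68 CPM in D1Dox_d2, against 0.706, 0.672 and 0.892 CPM in NoDox_d2. These values rest on 319 counts over the 3 D1Dox_d2 libraries and 61 over the 3 NoDox_d2 libraries. The groups were far apart, and the log2 fold change was 2.50 ± 0.50 (edgeR adjusted p = 0.00369). Bbc3, also called Puma, another promoter of cell death in that family, had 11.2, 8.99 and 10.8 CPM in D1Dox_d2, against 17.9, 22.1 and 22.6 CPM in NoDox_d2. Every D1Dox_d2 library was lower than every NoDox_d2 library, and the log2 fold change was -1.01 ± 0.19 (edgeR adjusted p = 0.00300). Bax, which forms pores in the outer mitochondrial membrane, had 88.8, 81.8 and 76.2 CPM in D1Dox_d2, against 73.8, 68.3 and 71.7 CPM in NoDox_d2. The Bax groups did not overlap, but the log2 fold change of 0.21 ± 0.10 was not called (edgeR adjusted p = 0.158). Bax shares 12.2% of its exon bases with a predicted gene on the same strand, so its counts are uncertain to that degree.

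Among the remaining effectors, Eda2r, a receptor of the TNF receptor family for ectodysplasin, had 65.0, 64.6 and 77.2 CPM in D1Dox_d2, against 41.2, 34.5 and 27.1 CPM in NoDox_d2. The groups were apart, with a log2 fold change of 1.01 ± 0.19 (edgeR adjusted p = 0.00258). Phlda3, a protein that competes with the kinase Akt for membrane lipids, had 88.2, 85.8 and 86.9 CPM in D1Dox_d2, against 64.3, 50.7 and 49.4 CPM in NoDox_d2, a log2 fold change of 0.67 ± 0.14 (edgeR adjusted p = 0.00453). The 3 D1Dox_d2 libraries lay within 3 CPM of each other and above all NoDox_d2 libraries. Trp53inp1, a stress-induced partner of p53 that promotes cell death and autophagy, had 235, 232 and 251 CPM in D1Dox_d2, against 279, 213 and 179 CPM in NoDox_d2. Zmat3, an RNA-binding zinc finger protein, had 173, 178 and 189 CPM in D1Dox_d2, against 169, 227 and 223 CPM in NoDox_d2. Both of these genes overlapped between the groups and were not called, with edgeR adjusted p of 0.648 and 0.453. The 6 calls of day 2 held when any single library of the groups compared was left out. Without both NoDox libraries numbered 1 the count was 7 higher and 2 lower. That fit added Cdkn1a and Trp53inp1 as higher and Zmat3 as lower. It called 9902 genes in all, against 5136 with every library.

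**Figure D2:**
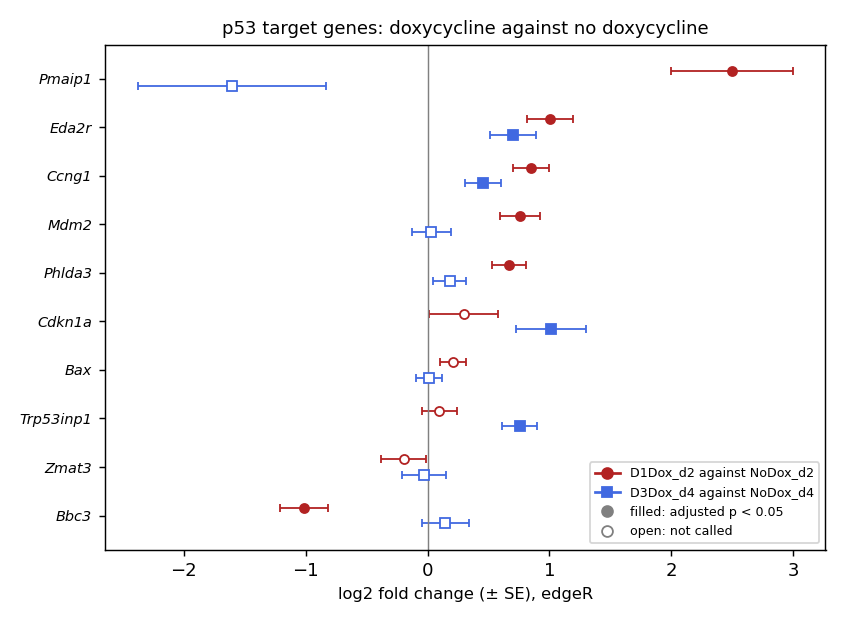
log2 fold change with its standard error (horizontal axis) of the 10 p53 target genes for D1Dox_d2 against NoDox_d2 (red circles) and D3Dox_d4 against NoDox_d4 (blue squares); filled symbols passed an edgeR adjusted p of 0.05. Ccng1 and Eda2r are filled in both comparisons; Pmaip1, Mdm2, Phlda3 and Bbc3 are filled on day 2 and Cdkn1a and Trp53inp1 on day 4.

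On day 4, 4 of the 10 p53 targets rose with doxycycline and 0 fell: Cdkn1a, Trp53inp1, Eda2r and Ccng1 were higher in D3Dox_d4 than in NoDox_d4. Of all genes tested, 13.4% rose and 10.2% fell in edgeR's test of this comparison, 23.5% in either direction. The same 4 members did not overlap between the groups, with D3Dox_d4 higher, against 22.0% of all genes in that direction and 40.6% in either. The median log2 fold change was 0.16 over the 10 genes and -0.03 over all genes.

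Cdkn1a had 167, 148 and 159.9 CPM in D3Dox_d4, against 58.8, 97.0 and 79.5 CPM in NoDox_d4. The D3Dox_d4 libraries were all higher, and the log2 fold change was 1.01 ± 0.29 (edgeR adjusted p = 0.0242). Trp53inp1 had 139, 155 and 157 CPM in D3Dox_d4, against 80.5, 88.5 and 98.6 CPM in NoDox_d4. These groups were also apart, with a log2 fold change of 0.76 ± 0.14 (edgeR adjusted p = 0.00301). Eda2r had 41.4, 49.9 and 52.7 CPM in D3Dox_d4, against 22.5, 35.9 and 30.2 CPM in NoDox_d4, a log2 fold change of 0.70 ± 0.19 (edgeR adjusted p = 0.0190). Ccng1 had 216, 231 and 236 CPM in D3Dox_d4, against 145, 186 and 168 CPM in NoDox_d4, a log2 fold change of 0.45 ± 0.15 (edgeR adjusted p = 0.0431). In both genes the lowest D3Dox_d4 library was still above the highest NoDox_d4 library. Trp53inp1 kept its call whichever library of the groups compared was left out. Cdkn1a lost it without any one of the D3Dox_d4 libraries or without NoDox_d4 replicate 1 or 3 (edgeR adjusted p = 0.0502 to 0.0677), and Ccng1 without the same libraries (0.0648 to 0.117) or with upper-quartile scaling (0.0577), whereas Eda2r lost it without D3Dox_d4 replicate 2 (0.0577) or 3 (0.0697).

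The other 6 genes overlapped between the groups on day 4 and were not called in edgeR's test. Mdm2, which had risen on day 2, had 69.1, 71.9 and 72.2 CPM in D3Dox_d4, against 71.3, 69.9 and 67.4 CPM in NoDox_d4. All 6 of these values lay within 5 CPM of each other. Phlda3 had 42.4, 32.6 and 34.0 CPM in D3Dox_d4, against 36.0, 31.9 and 28.2 CPM in NoDox_d4. Bax had 71.1, 60.7 and 58.3 CPM in D3Dox_d4, against 59.1, 69.2 and 60.4 CPM in NoDox_d4. Neither gene separated the groups. Bbc3 had 20.3, 22.2 and 19.2 CPM in D3Dox_d4, against 12.9, 22.0 and 20.8 CPM in NoDox_d4. Zmat3 had 114, 139 and 140.0 CPM in D3Dox_d4, against 93.6, 144 and 163 CPM in NoDox_d4. In both, NoDox_d4 replicate 1 was the lowest of the 6 libraries. Pmaip1 was at or near the floor of 3 counts per library, with 3, 3 and 0 counts in D3Dox_d4, against 12, 2 and 4 counts in NoDox_d4, so no fold is given for it on this day.

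The doxycycline effect itself was compared between the days, as the log2 fold change on day 4 minus that on day 2. It differed for 2 of the 10 genes, Bbc3 and Pmaip1, against 12.9% of all genes in edgeR's interaction test, 6.66% with a positive and 6.24% with a negative difference. For Bbc3 the difference was 1.16 ± 0.27 (edgeR adjusted p = 0.0189): the 3 D1Dox_d2 libraries were below all NoDox_d2 libraries, whereas the groups overlapped on day 4. For Pmaip1 it was -4.10 ± 0.91 (edgeR adjusted p = 0.0153), a fitted value that depends on the 6 counts found over all D3Dox_d4 libraries. Trp53inp1, with a difference of 0.66 ± 0.20, and Mdm2, with -0.73 ± 0.23, missed the threshold (edgeR adjusted p = 0.0532 and 0.0576). Both were called with no filter on low counts (edgeR adjusted p = 0.0338 and 0.0476) and in the DESeq2 test (adjusted p = 0.0423 and 0.0415), and Mdm2 with upper-quartile scaling (edgeR adjusted p = 0.0413). The other 6 genes had edgeR adjusted p of 0.120 or more, among them Cdkn1a at 0.72 ± 0.40, so an effect past the threshold on 1 day only is not by itself a difference between days. Bbc3 lost its call without D1Dox_d2 replicate 2 (edgeR adjusted p = 0.0524). Without the library labelled NoDox_d2 replicate 1, 6 of the 10 differences were called, 2 positive and 4 negative. That fit added Mdm2 at -0.998 and Trp53inp1 at 0.483 (edgeR adjusted p = 1.70e-04 and 0.0338). Ccng1 at -0.581 and Phlda3 at -0.603 were also added (edgeR adjusted p = 0.0158 and 0.0293). Without both NoDox libraries numbered 1, 7 were called, 2 positive and 5 negative. Eda2r was then added, at -0.614 (edgeR adjusted p = 0.0206). Over all genes these fits called 5037 and 6424 differences, against 2336 with every library.

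Without doxycycline, 5 of the 10 p53 targets fell and 0 rose in NoDox_d4 against NoDox_d2: Trp53inp1, Phlda3, Cdkn1a, Ccng1 and Zmat3 in edgeR's test, against 5.55% of all genes that fell and 5.09% that rose, 10.6% in either direction. The groups did not overlap, with NoDox_d4 lower, for 7 of the 10 genes, against 11.7% of all genes in that direction and 23.2% in either. Bbc3, Bax and Eda2r overlapped between the groups, and these 3, Mdm2 and Pmaip1 were not called. All 10 log2 fold changes were negative, with a median of -0.59, against 0.02 over all genes. Without both NoDox libraries numbered 1, Eda2r was positive, at 0.10, and without NoDox_d4 replicate 1, Bbc3 was, at 0.0369, neither called in edgeR's test. In the fit with the replicate number as a block, which treats libraries of the same number as pairs, 4 of the 10 were called. Ccng1 was not called there (edgeR adjusted p = 0.0549). When the libraries of the other groups were left out of the fit, 1 of the 10 was called, Trp53inp1. Pmaip1 was called in the DESeq2 test (adjusted p = 0.0237) and in edgeR without NoDox_d4 replicate 1 (0.0128), and Mdm2 in edgeR without NoDox_d2 replicate 2 (0.0485).

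The values of each library are those given above for the days. Trp53inp1 had a mean of 89.2 ± 9.08 CPM in NoDox_d4 and 224 ± 51.0 CPM in NoDox_d2 (SD, n = 3 each). Its libraries were well apart, and the log2 fold change was -1.33 ± 0.15 (edgeR adjusted p = 3.63e-04). Phlda3 had 32.1 ± 3.90 CPM in NoDox_d4 and 54.8 ± 8.27 CPM in NoDox_d2, a log2 fold change of -0.77 ± 0.14 (edgeR adjusted p = 0.00485). Cdkn1a had 78.5 ± 19.1 CPM in NoDox_d4 and 182 ± 95.5 CPM in NoDox_d2, a log2 fold change of -1.21 ± 0.29 (edgeR adjusted p = 0.0205). The wide spread of Cdkn1a on day 2 came with the 292 CPM of the library labelled NoDox_d2 replicate 1. Ccng1 and Zmat3 had log2 fold changes of -0.56 ± 0.15 and -0.63 ± 0.18 (edgeR adjusted p = 0.0332 and 0.0499). Trp53inp1 and Phlda3 kept their calls whichever library of the groups compared was left out. Cdkn1a lost its call without NoDox_d4 replicate 3 (edgeR adjusted p = 0.0676), Ccng1 without the library labelled NoDox_d2 replicate 1 or without NoDox_d4 replicate 1 or 3 (0.0559 to 0.0924), and Zmat3 without NoDox_d2 replicate 2 or 3 or NoDox_d4 replicate 1 or 2 (0.0601 to 0.138).

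With doxycycline, 7 of the 10 genes fell and 1 rose in D3Dox_d4 against D1Dox_d2, a comparison in which 21.4% of all genes fell and 22.6% rose in edgeR's test, 44.0% in either direction. All 10 genes separated the groups, 9 with D3Dox_d4 lower and Bbc3 with D3Dox_d4 higher, against 32.0% of all genes lower, 33.7% higher and 65.7% in either direction. The median was -0.60 over the 10 genes and 0.00 over all genes. The day of collection and the digit between D and Dox both differ between these groups and cannot be told apart. This comparison shares its libraries with those by doxycycline above.

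Mdm2 had a mean of 71.1 ± 1.69 CPM in D3Dox_d4 and 160.0 ± 1.63 CPM in D1Dox_d2, a log2 fold change of -1.17 ± 0.16 (edgeR adjusted p = 2.55e-04). Phlda3 fell to 36.3 ± 5.34 CPM in D3Dox_d4, against 87.0 ± 1.20 CPM in D1Dox_d2, a log2 fold change of -1.26 ± 0.14 (edgeR adjusted p = 5.52e-05). Ccng1 had 228 ± 10.8 CPM in D3Dox_d4 and 441 ± 18.2 CPM in D1Dox_d2, a log2 fold change of -0.95 ± 0.15 (edgeR adjusted p = 4.83e-04). These 3 genes fell in every D3Dox_d4 library relative to every D1Dox_d2 library. Pmaip1 had 6 counts over the D3Dox_d4 libraries and 319 over the D1Dox_d2 libraries, and its fitted log2 fold change of -5.76 ± 0.65 (edgeR adjusted p = 6.53e-05) depends on those few counts. Bbc3 moved the other way, with 20.6 ± 1.53 CPM in D3Dox_d4 and 10.3 ± 1.19 CPM in D1Dox_d2, a log2 fold change of 0.99 ± 0.19 (edgeR adjusted p = 0.00204). Trp53inp1, Bax and Eda2r fell by less, with log2 fold changes of -0.67 ± 0.14, -0.38 ± 0.10 and -0.52 ± 0.19. Cdkn1a and Zmat3 were not called, at -0.49 ± 0.28 and -0.46 ± 0.18 (edgeR adjusted p = 0.176 and 0.0603). When only the libraries compared were fitted, both were called as lower (edgeR adjusted p = 2.70e-04 for Cdkn1a and 0.00115 for Zmat3). Zmat3 was also called as lower with DESeq2 size factors, upper-quartile scaling or a 1 CPM filter (edgeR adjusted p = 0.0368 to 0.0431) and in the DESeq2 test (adjusted p = 0.0485). Eda2r (edgeR adjusted p = 0.0401) lost its call without any one of these 6 libraries (0.0568 to 0.135), and Bax (0.0133) lost it without D1Dox_d2 replicate 1 (0.0627) or D3Dox_d4 replicate 2 (0.0543) or 3 (0.0641).

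The RNA of Trp53 itself did not rise with doxycycline in either comparison. It had 246, 239 and 233 CPM in D1Dox_d2, against 336, 283 and 311 CPM in NoDox_d2. Every D1Dox_d2 library was lower, but the log2 fold change of -0.37 ± 0.17 was not called (edgeR adjusted p = 0.116). It was called as lower when only the libraries compared were fitted (-0.37, edgeR adjusted p = 0.0215) and without both NoDox libraries numbered 1 (-0.32, edgeR adjusted p = 0.00274). On day 4 it had 152, 145 and 154 CPM in D3Dox_d4, against 293, 181 and 172 CPM in NoDox_d4, and fell, with a log2 fold change of -0.52 ± 0.17 (edgeR adjusted p = 0.0439). NoDox_d4 replicate 1 was far above its other libraries, and without it the log2 fold change was -0.23 and not called (edgeR adjusted p = 0.0894), as was the case without any one of the D3Dox_d4 libraries (0.100 to 0.131) or when only the libraries compared were fitted (0.120). The relatives of p53 moved in opposite directions. Trp63, an epithelial regulator, rose on both days, with log2 fold changes of 2.64 ± 0.36 on day 2 and 2.63 ± 0.41 on day 4 (edgeR adjusted p = 3.10e-04 and 8.89e-04), at low levels of 4.05, 3.13 and 3.21 CPM in D1Dox_d2, against 0.741, 0.316 and 0.595 CPM in NoDox_d2. On day 4 Trp63 had 0.831, 1.47 and 1.19 CPM in D3Dox_d4, against 0.118, 0.203 and 0.231 CPM in NoDox_d4. These NoDox_d4 levels are near the limit of detection, so the size of the day 4 fold is uncertain. Trp73 fell on both days, with log2 fold changes of -1.17 ± 0.22 on day 2 and -1.67 ± 0.24 on day 4 (edgeR adjusted p = 0.00254 and 5.22e-04). It had 6.86, 6.71 and 6.76 CPM in D1Dox_d2, against 19.6, 12.3 and 13.9 CPM in NoDox_d2.

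Of a list of 18 genes with p53, its relatives and its regulators, 3 rose, 3 fell and 12 were not called on day 2. Over all genes 14.9% rose and 13.4% fell, so these day 2 counts are close to the background. On day 4, 1 of the 18 rose, 7 fell and 10 were not called, beside 13.4% of all genes that rose and 10.2% that fell. Cdkn2a, whose Arf product shields p53 from Mdm2, rose on day 2, with 6.52, 6.63 and 6.84 CPM in D1Dox_d2, against 2.90, 0.553 and 0.409 CPM in NoDox_d2. The highest of the NoDox_d2 values was in the library labelled replicate 1. The log2 fold change was 2.36 ± 0.60 (edgeR adjusted p = 0.0135, and 0.0504 without NoDox_d2 replicate 2). Counts summed over all exons of Cdkn2a do not tell Arf from its other product. Prkdc, a kinase of the DNA damage response, fell on day 2, with a log2 fold change of -0.62 ± 0.15 (edgeR adjusted p = 0.0105). On day 4 the kinases Chek1 and Atr, which signal stalled DNA replication, fell, with log2 fold changes of -0.92 ± 0.15 and -0.55 ± 0.14 (edgeR adjusted p = 0.00114 and 0.0132). The counts over the 18 genes moved with single libraries: 3 were called on day 2 without NoDox_d2 replicate 2, and on day 4 only 4 without D3Dox_d4 replicate 1 and 5 without D3Dox_d4 replicate 2 or 3 or NoDox_d4 replicate 1 or 3. Without doxycycline, 2 of the 18 fell on day 4 against day 2 and 0 rose, against 5.55% and 5.09% of all genes. These were Trp73 at -2.01 ± 0.23 and Trp63 at -1.56 ± 0.43. When only the libraries compared were fitted, 1 of the 18 fell. The value of Trp63 rests on its levels near the limit of detection in NoDox_d4. Trp63 lost this call under the replicate block (edgeR adjusted p = 0.0669) and without the library labelled NoDox_d2 replicate 1, NoDox_d2 replicate 3 or any one of the NoDox_d4 libraries (0.0769 to 0.104). Trp53 itself was not called there, at -0.53 ± 0.17 (edgeR adjusted p = 0.0691), but was called as lower under the replicate block (-0.55, edgeR adjusted p = 0.0427), with no filter on low counts (-0.53, edgeR adjusted p = 0.0333), without NoDox_d4 replicate 1 (-0.81, edgeR adjusted p = 2.67e-04) and in the DESeq2 test (-0.53, adjusted p = 0.0492). The DESeq2 test called 4 of the 18, 1 higher and 3 lower. Mdm4, which inhibits p53 alongside Mdm2, was called in no comparison, with 199, 199 and 206 CPM in D1Dox_d2, against 179, 267 and 235 CPM in NoDox_d2; it was named after its values were seen.

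**Figure D3:**
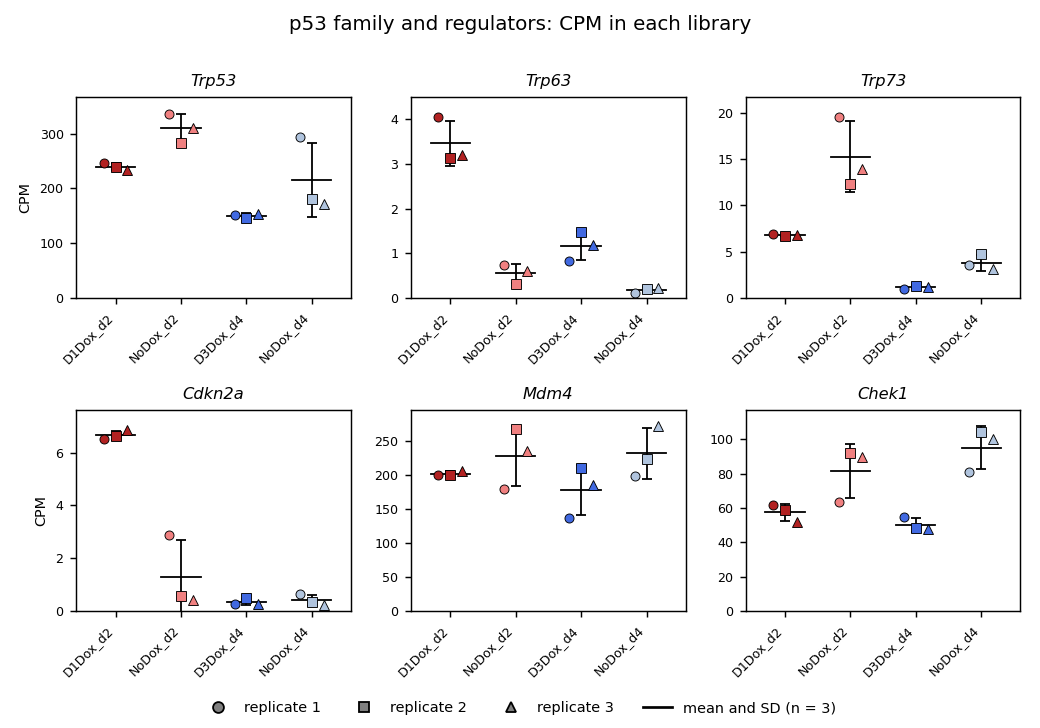
CPM (vertical axis, linear, own scale per gene) of Trp53, its relatives Trp63 and Trp73, and Cdkn2a, Mdm4 and Chek1 in the 12 libraries, by group; symbols give the replicate number and bars the mean and SD of 3 libraries. Trp63 and Cdkn2a are highest and Trp73 is lower than in NoDox_d2 in the 3 D1Dox_d2 libraries; the last 2 panels were chosen after their values were seen.

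Among 33 other known p53 targets, 10 rose, 5 fell and 18 were not called in D1Dox_d2 against NoDox_d2, with a median log2 fold change of 0.29. Of all genes tested, 14.9% rose and 13.4% fell in this comparison. Ephx1, an epoxide hydrolase, had 23.3, 22.9 and 27.8 CPM in D1Dox_d2, against 7.66, 7.94 and 7.99 CPM in NoDox_d2, a log2 fold change of 1.65 ± 0.19 (edgeR adjusted p = 9.97e-05). Ak1, an adenylate kinase, rose by a log2 fold change of 1.14 ± 0.15 and Fas, a death receptor, by 2.19 ± 0.33 (edgeR adjusted p = 2.00e-04 and 7.13e-04). Xpc, a sensor of DNA damage in nucleotide excision repair, fell, with a log2 fold change of -0.70 ± 0.11 (edgeR adjusted p = 1.00e-03). On day 4, 6 rose, 1 fell and 26 were not called in D3Dox_d4 against NoDox_d4, with a median of 0.17. Here 13.4% of all genes rose and 10.2% fell. Ak1 and Fas rose again, with log2 fold changes of 0.67 ± 0.15 and 1.78 ± 0.36 (edgeR adjusted p = 0.00637 and 0.00456). Fas was low on this day, with 1.08, 1.47 and 1.55 CPM in D3Dox_d4, against 0.473, 0.488 and 0.231 CPM in NoDox_d4, so the size of its fold is uncertain. Gdf15, a secreted stress cytokine, had 8.78, 5.27 and 7.48 CPM in D3Dox_d4, against 0.237, 2.07 and 1.23 CPM in NoDox_d4, a log2 fold change of 2.60 ± 0.65 (edgeR adjusted p = 0.0134). Sesn1, a leucine sensor that restrains mTORC1 signalling, had 29.2, 25.0 and 28.1 CPM in D3Dox_d4, against 15.0, 17.5 and 15.3 CPM in NoDox_d4. It rose on day 4, at a log2 fold change of 0.78 ± 0.14, and fell on day 2, at -0.62 ± 0.14, and the difference between the days, 1.41 ± 0.20, was itself called (edgeR adjusted p = 0.00199). The difference was called for 7 of the 33 genes, 3 positive and 4 negative. Over all genes it was called for 12.9%, 6.66% positive and 6.24% negative. Among those 7 genes it was positive for Xpc, at 0.84 ± 0.16. It was negative for Ephx1 and for Gtse1, which binds microtubules and restrains p53, at -1.48 ± 0.27 and -0.97 ± 0.18.

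**Figure D4:**
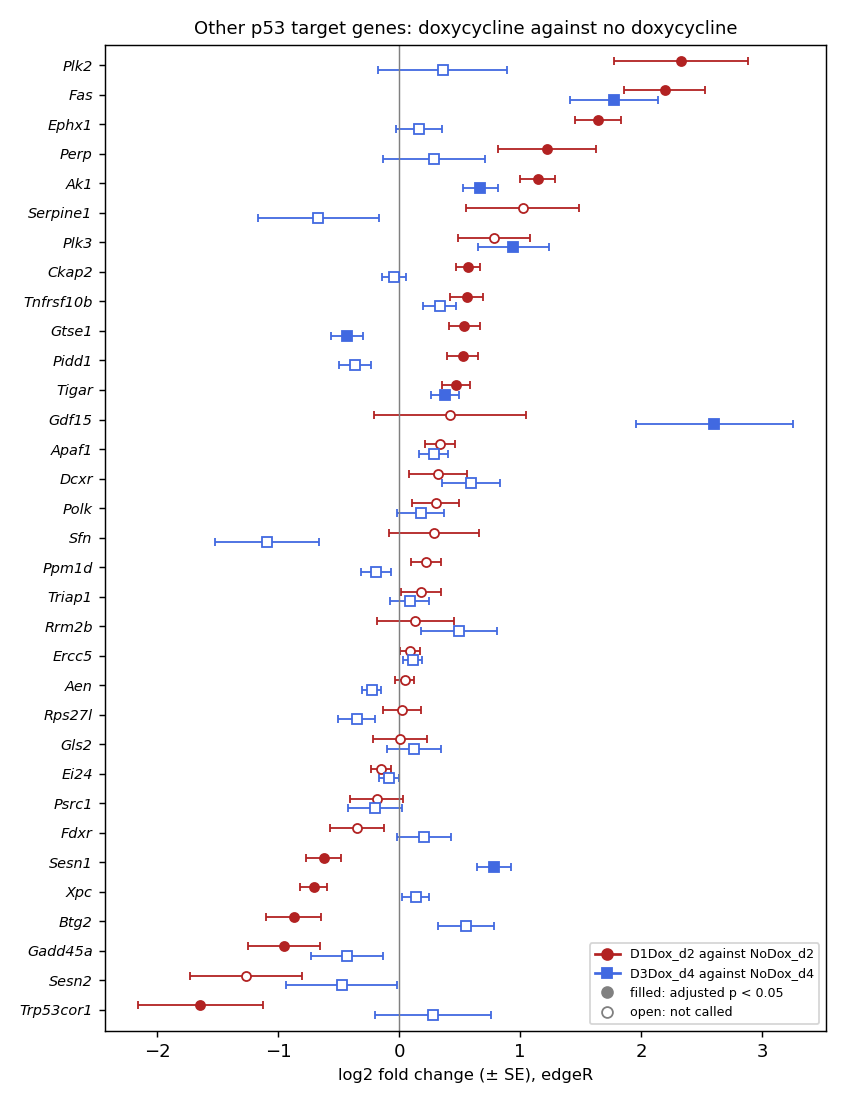
log2 fold change with its standard error (horizontal axis) of 33 other p53 targets for D1Dox_d2 against NoDox_d2 (red circles) and D3Dox_d4 against NoDox_d4 (blue squares), sorted by the first; filled symbols passed an edgeR adjusted p of 0.05. Fas and Ak1 are filled to the right in both comparisons, whereas Sesn1 is filled to the left on day 2 and to the right on day 4.

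Without doxycycline, 1 of these 33 genes rose, 8 fell and 24 were not called in NoDox_d4 against NoDox_d2, with a median of -0.39. Of all genes, 5.09% rose and 5.55% fell in that comparison. Perp, a desmosome protein, Tnfrsf10b, a death receptor, and Aen, an exonuclease of apoptosis, fell, with log2 fold changes of -2.34 ± 0.43, -1.01 ± 0.14 and -0.61 ± 0.08 (edgeR adjusted p = 0.00546, 0.00110 and 8.41e-04). Perp had 6.39, 8.21 and 6.26 CPM in NoDox_d4, against 68.7, 17.2 and 19.9 CPM in NoDox_d2. The highest of these was in the library labelled NoDox_d2 replicate 1, so the size of the Perp fold depends on it. When only the libraries compared were fitted, Perp was not called (edgeR adjusted p = 0.0971). In D3Dox_d4 against D1Dox_d2, 9 rose, 16 fell and 8 were not called, with a median of -0.46. Of all genes, 22.6% rose and 21.4% fell there. Ephx1 and Gtse1 fell, with log2 fold changes of -2.18 ± 0.19 and -1.69 ± 0.13 (edgeR adjusted p = 1.33e-05 and 5.62e-06). Without both NoDox libraries numbered 1, 17 of the 33 rose and 8 fell on day 2, and 10 rose and 7 fell on day 4. Over all genes that fit called 4985 higher and 4917 lower on day 2, and 3843 higher and 3325 lower on day 4. Leaving out single libraries moved some counts over the 33 genes. On day 2, 6 rose and 2 fell without NoDox_d2 replicate 3. On day 4, 4 rose and 0 fell without D3Dox_d4 replicate 3. Between the days without doxycycline, 0 rose and 5 fell without NoDox_d4 replicate 3. When only the libraries compared were fitted, 0 rose and 2 fell between these days, in a fit that called 206 genes in all. Without the library labelled NoDox_d2 replicate 1, 16 of the 33 differences of the doxycycline effects were called, in a fit that called 5037 over all genes.

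Cell death genes of the BCL2 family that are not in the list of 10 were called in both directions. Of 12 tested, 2 rose and 3 fell on day 2, against 14.9% and 13.4% of all genes, so these counts are close to the background. Mcl1, which holds back cell death, rose by a log2 fold change of 0.62 ± 0.12, and Bik, a sensitizer that promotes it, fell, at -2.21 ± 0.32 (edgeR adjusted p = 0.00325 and 5.55e-04). Bad, a promoter of cell death, also rose on day 2, at 0.67 ± 0.15 (edgeR adjusted p = 0.00802). On day 4, 2 rose and 2 fell, against 13.4% and 10.2% of all genes: Bcl2l2, an inhibitor of cell death, and Bad, at 0.79 ± 0.13 and 0.63 ± 0.15, and Bak1 and Bcl2l11, both promoters, at -0.86 ± 0.13 and -0.59 ± 0.10 (edgeR adjusted p = 0.00136, 0.0118, 8.55e-04 and 0.00169). An antisense gene overlaps over 10% of the exon bases of Bad and of Bak1, and a gene on the same strand those of Bcl2l2, so these counts are uncertain.

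Genes of cell division and its brakes were read beside Cdkn1a. Of 19 inhibitors of cyclin-dependent kinases, early cyclins and retinoblastoma proteins, 5 rose and 2 fell on day 2, and 4 rose and 4 fell on day 4. The shares of all genes that rose and fell were 14.9% and 13.4% on day 2, and 13.4% and 10.2% on day 4. Without NoDox_d2 replicate 2, 2 of the 19 rose and 2 fell on day 2. Without D3Dox_d4 replicate 2, 3 rose and 2 fell on day 4. Cdkn1c, an inhibitor of the same family as Cdkn1a, fell on day 2 and rose on day 4, with log2 fold changes of -0.80 ± 0.19 and 1.17 ± 0.19 (edgeR adjusted p = 0.00897 and 0.00104), and the difference of 1.97 ± 0.26 was called (edgeR adjusted p = 0.00138). An antisense gene overlaps 30.7% of the exon bases of Cdkn1c. Cdkn2d, another inhibitor, rose on both days, by 0.80 ± 0.20 and 1.00 ± 0.20. Ccng2, the relative of Ccng1, rose on day 4 by 1.02 ± 0.10 (edgeR adjusted p = 3.29e-05). Of 12 genes of proliferation, 1 rose and 7 fell on day 2, and 0 rose and 10 fell on day 4, beside the same shares of all genes. Their medians were -0.37 and -0.64. Mcm3, part of the helicase that opens DNA for replication, fell, with log2 fold changes of -0.51 ± 0.09 on day 2 and -0.81 ± 0.09 on day 4 (edgeR adjusted p = 0.00237 and 1.25e-04). Summed over the 12 genes, the level was 3489 to 3864 CPM in D1Dox_d2, against 4211 to 4602 CPM in NoDox_d2, and 2765 to 2869 CPM in D3Dox_d4, against 4235 to 4756 CPM in NoDox_d4. The groups did not overlap on either day.

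Markers of fibroblasts and of epiblast moved with the groups and stand beside all of these counts. Of all genes, 14.9% rose and 13.4% fell on day 2, and 13.4% rose and 10.2% fell on day 4. Of the 16 fibroblast genes, 12 rose and 0 fell on day 2, and 2 rose and 5 fell on day 4. The 2 fibroblast genes with the lowest adjusted p on day 2 were Col1a2 and Postn, a collagen and a matrix protein. Their log2 fold changes were 3.34 ± 0.13 and 3.36 ± 0.29 (edgeR adjusted p = 4.54e-08 and 1.42e-05). On day 4 Col1a2 rose by 2.96 ± 0.13 and Acta2, a smooth muscle actin, fell, at -2.66 ± 0.57. Of 11 epiblast genes tested, 4 fell and 0 rose on day 2, and 6 fell and 1 rose on day 4. Without the library labelled NoDox_d2 replicate 1, 5 epiblast genes fell and 3 rose on day 2, and without D3Dox_d4 replicate 1 or 3, 3 fell and 1 rose on day 4. The count of fibroblast genes that fell on day 4 was 2 without D3Dox_d4 replicate 1 or 2. Sox3, a factor of epiblast and neural progenitors, fell, with log2 fold changes of -3.03 ± 0.17 on day 2 and -2.12 ± 0.17 on day 4 (edgeR adjusted p = 6.33e-07 and 6.92e-06). Between the days without doxycycline, 8 of the 11 epiblast genes fell and 0 rose, and 4 of the 16 fibroblast genes fell, a count that was 2 without NoDox_d2 replicate 2 and 7 without NoDox_d4 replicate 1. When only the libraries compared were fitted, 4 epiblast genes and 0 fibroblast genes fell, in a fit that called 206 genes in all. Over all genes, 5.55% fell and 5.09% rose between the days without doxycycline. In D3Dox_d4 against D1Dox_d2, 14 of the 16 fibroblast genes fell, against 21.4% of all genes. The part of these cell type markers in the results on p53 targets was not tested.

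**Figure D5:**
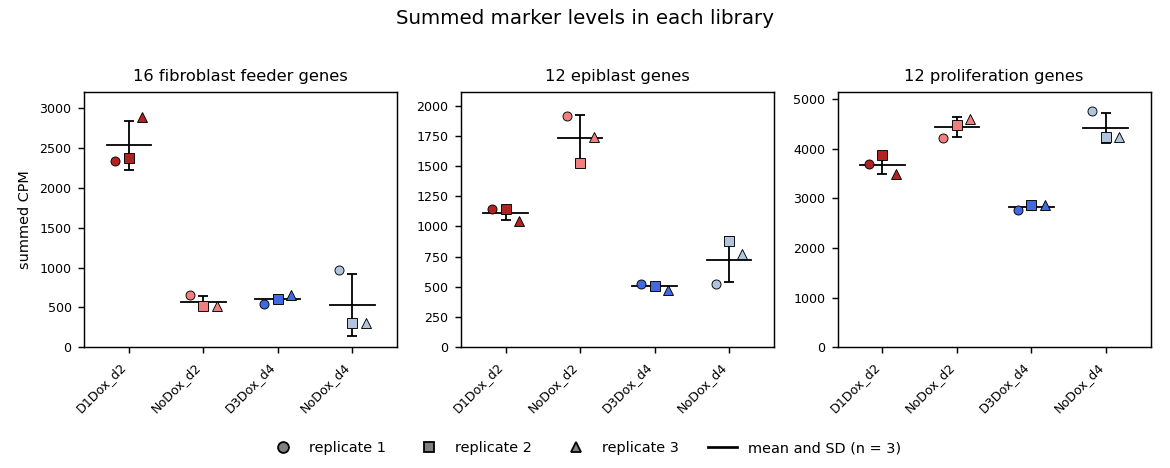
Summed CPM (vertical axis, linear from 0) of 16 fibroblast, 12 epiblast and 12 proliferation genes in the 12 libraries, by group; symbols give the replicate number and bars the mean and SD of 3 libraries. The fibroblast sum is 2346 to 2891 CPM in D1Dox_d2 and at most 975 CPM in every other library.

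In the genome, on build GRCm38 and with the gene spans of the deposited table, the 10 genes lie on 9 chromosomes. Cdkn1a spans chr17:29090976-29100727, Mdm2 chr10:117688875-117710758, Ccng1 chr11:40748552-40755311, Trp53inp1 chr4:11156431-11174379 and Bbc3 chr7:16308393-16318205. Bax spans chr7:45461697-45466898, Eda2r chrX:97333840-97377216, Phlda3 chr1:135766119-135769136 and Zmat3 chr3:32334792-32366014, and Pmaip1 lies on chromosome 18. Counts were summed over all exons of each gene, untranslated regions included, so no isoform of Mdm2, Bax or Cdkn1a is told apart.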

How the data were processed

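RNA was extracted from flash-frozen embryoid bodies, made into libraries with the NEBNext Ultra II kit and sequenced as 150 bp paired reads on a HiSeq 4000, per the labels' protocols. Reads were trimmed with Trim Galore to at least 50 bp, per the same protocols. GRCm38 and mm10 are the builds named by the submitters' processing notes, and STAR, featureCounts and DESeq2 the tools. The authors deposited a table of raw gene counts, which per the file headers came from featureCounts 2.0.1 run on read pairs without a strand setting, with GENCODE vM25 as annotation. Reads of antisense partners were therefore counted alike. Symbols were matched by identifier for 55141 of 55487 genes.

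These counts entered edgeR 4.0.16 in R 4.3.3 and its quasi-likelihood F-test, with TMM scaling, the filterByExpr filter, all 12 libraries, 1 coefficient per group and 8 residual degrees of freedom. Called genes had a Benjamini-Hochberg adjusted p under 0.05 over the 18109 genes tested. The standard error (SE) was taken from the F statistic, whose square root is the size of the log2 fold change over its SE. A count of 3 is the floor per library. An exact permutation test of 3 against 3 libraries cannot go below p = 0.1, two-sided, and gave no call. The groups were taken from the labels, and the 5 comparisons are doxycycline against none on each day, the difference of both effects, and day 4 against day 2 without and with the drug.

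Deviations from the group means correlated at 0.545, 0.361 and 0.308 between NoDox_d4 and NoDox_d2 libraries of the same number. Libraries of unlike number were not compared, and the libraries numbered 1 stood apart in both groups. Whether replicate numbers pair the libraries is therefore not shown. Alternatives were the test of DESeq2 1.42.0, its size factors in edgeR, upper-quartile scaling, a minimum of 1 CPM in 3 libraries or no filter, the replicate block, fits of the compared libraries alone, and fits that left out each library or both NoDox libraries numbered 1. Single libraries were left out only for the comparisons that use their group.

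The 10 genes, the 7 further lists of genes and the tests were chosen with earlier results of these data known. Named are the 10 genes, Mixl1 and Trp53, and, per comparison, up to 4 called genes with the lowest adjusted p from each list of p53 targets, p53 regulators, BCL2 family and cell cycle brakes, and up to 2 from the others. Not all of these are named. Ppm1d is in the lists of p53 targets and p53 regulators, and Cdkn2a in those of p53 regulators and cell cycle brakes. The self-test on simulated counts recovered the fold changes put in. It drew counts from edgeR's own fitted spread and changed only genes with many counts, so it checks the code and is no support for the calls.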

Additional observations from a re-analysis of the deposited data

Results flagged for a closer look

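The effect of doxycycline differed between the days for 2 of the 10 p53 targets, by edgeR's test of the difference itself, against 12.9% of all genes, so the count is close to the background. For Bbc3 the log2 fold change on day 4 minus that on day 2 was 1.16 ± 0.27 (SE; edgeR adjusted p = 0.0189), and without D1Dox_d2 replicate 2 it was not called (edgeR adjusted p = 0.0524). For Pmaip1 it was -4.10 ± 0.91 (edgeR adjusted p = 0.0153), which rests on 6 counts over the 3 D3Dox_d4 libraries and 18 over the 3 NoDox_d4 libraries, against 319 over the 3 D1Dox_d2 libraries and 61 over the 3 NoDox_d2 libraries.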

How the results depend on the processing

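Of the 10 p53 targets, those called in D1Dox_d2 against NoDox_d2 numbered 6 to 7 when any single library of the groups compared was left out, against 6 with all. They numbered 1 to 4 against 4 in D3Dox_d4 against NoDox_d4, 1 to 6 against 2 for the difference of the effects, 3 to 5 against 5 in NoDox_d4 against NoDox_d2, and 6 to 7 against 8 in D3Dox_d4 against D1Dox_d2. For the difference, 4 were called with no filter on low counts, 4 with the DESeq2 test and 7 without both NoDox libraries numbered 1. For NoDox_d4 against NoDox_d2, 1 was called when only the libraries compared were fitted. Over all genes, counts with single libraries left out were 3048 to 7438 against 5136 on day 2, 2756 to 4286 against 4263 on day 4, 1226 to 5037 against 2336 for the difference and 1064 to 3208 against 1926 for NoDox_d4 against NoDox_d2. Without both NoDox libraries numbered 1 they were 9902, 7168, 6424 and 4534, and with only the libraries compared the last was 206. Values near 0 changed sign without a call. On day 4 this held for Mdm2 (-0.0186 with upper-quartile scaling), Bax (-0.0381 with it, -0.0060 with a filter of 1 CPM, -0.0046 with only the libraries compared, -0.0317 without both NoDox libraries numbered 1, -0.0794 to 0.0866 with single libraries left out), Bbc3 (-0.0563 without both, -0.0566 to 0.29 with single libraries left out) and Zmat3 (-0.23 to 0.14 with single libraries left out). On day 2 it held for Trp53inp1 (-0.0483 to 0.27 with single libraries left out), for the difference for Zmat3 (-0.0250 to 0.35 with single libraries left out) and Trp53 (0.0880 without both, -0.27 to 0.15 with single libraries left out), and between the days without doxycycline for Bbc3 (-0.31 to 0.0369 with single libraries left out) and Eda2r (0.10 without both). The causes were not tested. With the replicate block the members called numbered 6, 3, 3, 4 and 8 in the order above. In NoDox_d4 against NoDox_d2, where deviations of libraries of the same number correlated at 0.308 to 0.545, the block ended the call of Ccng1. In the other comparisons (correlations of deviations -0.125 to 0.241), the block ended Ccng1 on day 4 (edgeR adjusted p = 0.0627) and Eda2r in D3Dox_d4 against D1Dox_d2 (0.0508). It added Zmat3 in D3Dox_d4 against D1Dox_d2 (0.0122) and Phlda3 for the difference (0.0468). Genes at a few counts, such as Pmaip1 on day 4, limit what depth can show.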
